A study of Mus musculus with 27 samples.

Results

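The Hox genes encode homeodomain transcription factors that give cells along the body axis their position. They were taken here as every gene whose single symbol in the array annotation was Hoxa, Hoxb, Hoxc or Hoxd followed by a number, each read from the probe set whose mean signal across the 27 arrays was brightest. The rule used names and brightness and no comparison between groups. It gave 33 of the 18193 genes measured: 9 in the Hoxa cluster, 9 in Hoxb, 7 in Hoxc and 8 in Hoxd. Hox genes with no probe set of their own under this rule were not analysed here.

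Expression was measured in R1, a mouse embryonic stem cell line, and in 2 mouse induced pluripotent stem cell lines, H9, reprogrammed with 3 factors and called 3F here, and 19BL, reprogrammed with 4 factors and called 4F. Day 0 cells were undifferentiated, kept with LIF on feeder cells stopped from dividing with mitomycin. Day 5 and day 11 samples were embryoid bodies, aggregates that differentiate without directing factors, in medium with serum and without LIF. Each of the 9 groups held 3 arrays labelled as biological replicates. No more than 1 line stands for each kind of cell, so the line and the way it was made cannot be told apart. The pluripotency factor gene Pou5f1 read 12.78 ± 0.21 (log2 signal, mean ± SD, n = 3) in R1, 12.7 ± 0.18 in 3F and 12.72 ± 0.24 in 4F at day 0, and 7.35 ± 1.06, 7.32 ± 0.34 and 9.91 ± 0.74 at day 11.

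In the embryo, Hox genes are switched on in the order in which they lie in their cluster, from paralog group 1 at the 3′ end to group 13 at the 5′ end, and genes later in the order mark more posterior levels. Retinoic acid, Wnt and Fgf signals and the Cdx factors take part in opening the clusters in the elongating tail end of the embryo, and Polycomb complexes hold them silent in pluripotent cells. Hox proteins bind DNA together with cofactors of the Pbx and Meis families. Posterior HoxA and HoxD genes also pattern the limb and genital buds, and cultured fibroblasts keep a Hox pattern of the body site they came from.

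The bases before the start sites of genes that the results turn on are shown first, from RefSeq on the mouse build GRCm38.p6, each 250 bases long, 5′ to 3′ on the strand of the gene. Hoxb1 and Hoxd1 were the genes of paralog group 1 that peaked at day 5, and Hoxa9 and Hoxd13 were posterior genes that rose at day 11 and differed between lines. Capitals mark matches, on either strand, to TGATNNAT, a form of the site bound by Pbx with an anterior Hox protein, or to TTTATA or TTTATG, forms of the Cdx site. The reverse complement of TTTATA is TATAAA, the TATA box, so these motifs overlap.
Hoxb1, chr11:96365508-96365757, plus strand: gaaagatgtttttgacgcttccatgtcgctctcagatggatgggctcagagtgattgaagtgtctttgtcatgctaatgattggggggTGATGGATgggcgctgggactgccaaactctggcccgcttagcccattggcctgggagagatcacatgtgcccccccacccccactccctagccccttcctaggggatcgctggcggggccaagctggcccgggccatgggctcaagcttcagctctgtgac
Hoxd1, chr2:74762730-74762979, plus strand: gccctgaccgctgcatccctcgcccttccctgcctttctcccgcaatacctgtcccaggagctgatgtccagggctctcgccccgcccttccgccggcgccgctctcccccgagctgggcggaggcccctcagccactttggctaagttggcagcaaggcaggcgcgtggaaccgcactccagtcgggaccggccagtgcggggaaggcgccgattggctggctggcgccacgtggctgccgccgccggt
Hoxa9, chr6:52227371-52227620, minus strand: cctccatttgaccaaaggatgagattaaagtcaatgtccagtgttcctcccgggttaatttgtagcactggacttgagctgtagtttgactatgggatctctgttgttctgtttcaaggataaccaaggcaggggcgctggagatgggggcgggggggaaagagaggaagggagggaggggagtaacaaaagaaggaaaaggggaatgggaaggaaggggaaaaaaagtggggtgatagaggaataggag
Hoxd13, chr2:74667975-74668224, plus strand: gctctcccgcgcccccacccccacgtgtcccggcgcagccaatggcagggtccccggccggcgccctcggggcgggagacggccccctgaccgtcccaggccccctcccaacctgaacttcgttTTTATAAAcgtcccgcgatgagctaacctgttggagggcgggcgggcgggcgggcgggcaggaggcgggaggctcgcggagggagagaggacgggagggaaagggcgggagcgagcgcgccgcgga

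Hoxb1 held 1 Pbx-Hox match, 162 bases before its start, and Hoxd13 held 2 overlapping Cdx matches that include 1 TATA box. The letters of these motifs were in neither the Hoxd1 nor the Hoxa9 window. Such matches are common: 7.68% of 32851 windows of the same length held TGATNNAT, 20.9% held a Cdx form and 7.59% held TATAAA. Of 21 windows that belong to 19 of the 33 Hox genes, 3 (14.3%), 5 (23.8%) and 1 (4.76%) held them.

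All values are log2 signals. The words rose, fell, differed and called are kept for changes of 2-fold or more with a Benjamini-Hochberg adjusted p under 0.05 in the limma fit over all genes. Changes are on the log2 scale with the standard error of the fit. Array values are listed in the order of replicates 1, 2 and 3, which carries no time or rank. Probe sets differ in affinity, so the level of one gene is never set against that of another. Of the 33 genes, 27 were above 5.375, the 40th percentile of all values, in at least 3 arrays, and Hoxa2, Hoxa4, Hoxb9 and Hoxd3 were above it in none. At least 1 of the 9 comparisons between days within a line called 17 of the 33 (51.5%), against 41.9% of all genes. Fewer expressing cells and less RNA per cell cannot be told apart in these bulk samples.

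**Figure D1:**
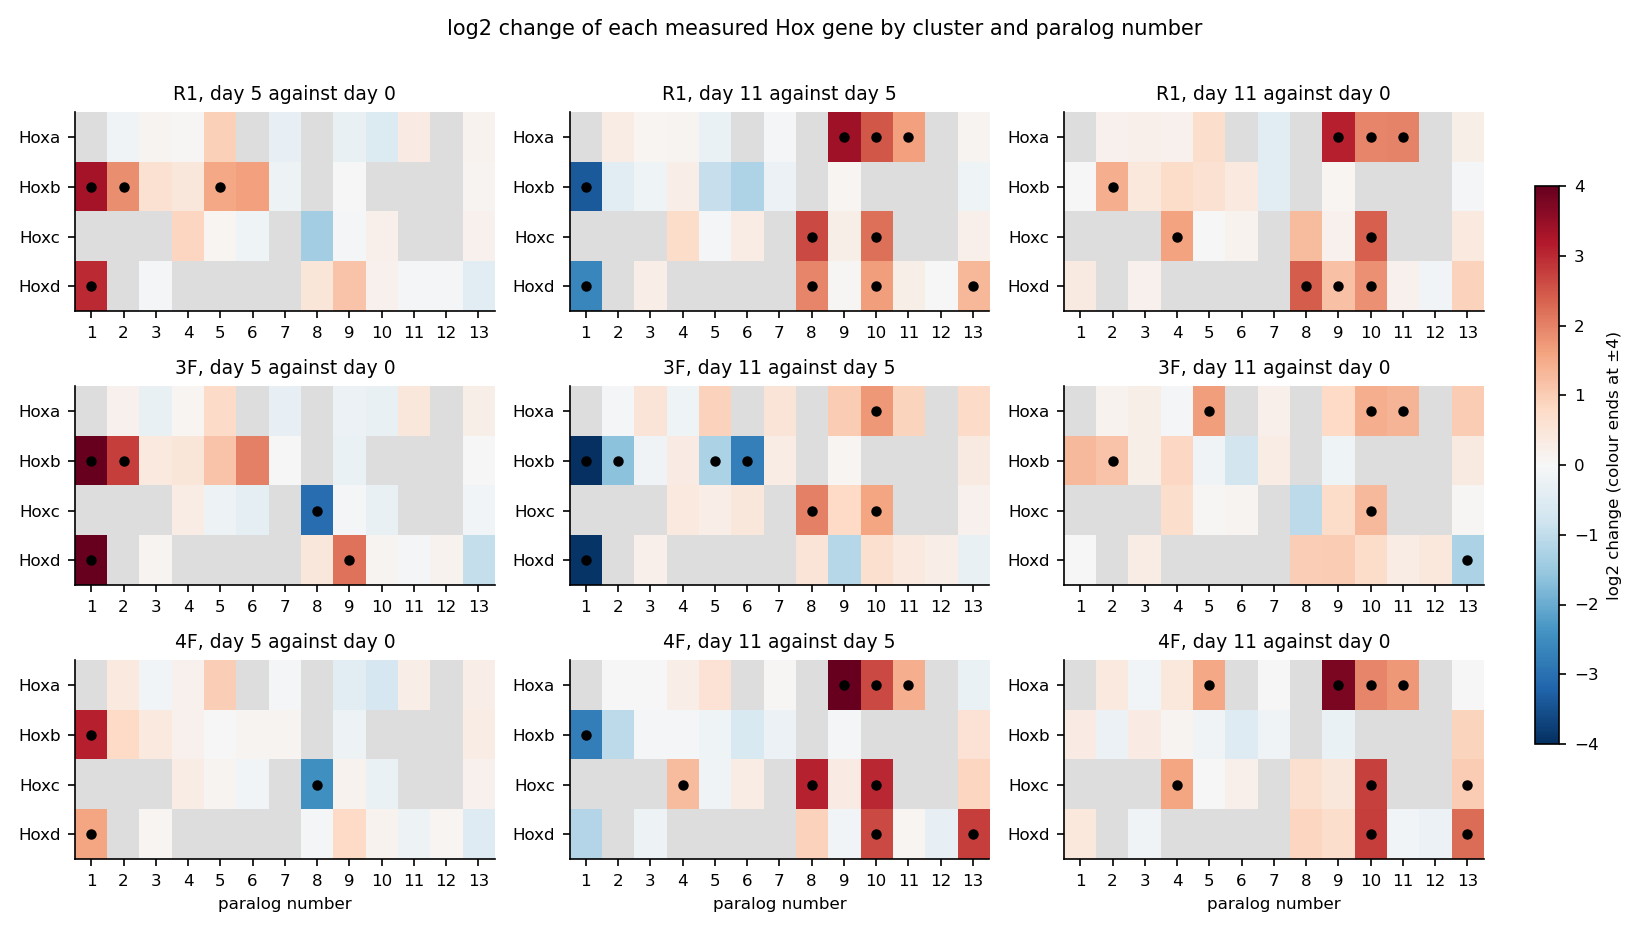
Log2 change of each measured Hox gene by cluster (rows) and paralog number (columns), for 3 lines (rows of panels) and 3 comparisons of days (columns of panels). Colour ends at ±4, a black dot marks a gene that rose or fell, and grey marks positions with no gene measured. Dots lie mainly at paralog numbers 1 and 2 in the day 5 panels and at 8 to 13 in the day 11 panels of R1 and 4F.

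At day 5 the rises were mainly of genes with low paralog numbers. In R1, Hoxb1, Hoxb2, Hoxb5 and Hoxd1 rose, 4 of 33 (12.1%) against 6.62% of all genes. In 3F, Hoxb1, Hoxb2, Hoxd1 and Hoxd9 rose (12.1% against 5.04%) and Hoxc8 fell (3.03% against 7.4%). In 4F, Hoxb1 and Hoxd1 rose (6.06% against 2.25%) and Hoxc8 fell (3.03% against 4.82%). Of the 7 genes with paralog numbers 1 to 3, 3 rose in R1, 3 in 3F and 2 in 4F, and of the 14 with numbers 9 to 13 only Hoxd9 in 3F did. Over both directions the called share was 12.1%, 15.2% and 9.09%, near the 14.7%, 12.4% and 7.07% of all genes. The median change of all 33 was 0.12, 0.1 and 0.11, against −0.02, 0.0 and 0.02 for all genes.

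Hoxb1, the paralog 1 gene that sets the identity of a hindbrain segment and is early active in the primitive streak, had the largest rise among the 33 in each line. It read 4.84, 5.29 and 5.18 in R1 at day 0, 8.62, 8.87 and 7.85 at day 5, and 5.26, 5.33 and 4.71 at day 11. In 3F it read 4.86, 4.56 and 4.59, then 10.17, 9.6 and 11.1, then 6.2, 5.64 and 6.07. Every day 5 array of these lines was above every array of the other days. In 4F the values were 4.62, 4.99 and 5.17 at day 0, 6.64, 6.25 and 11.25 at day 5, and 5.33, 5.35 and 5.15 at day 11, so replicate 3 stood far above the other day 5 arrays, which were still above day 0. The change from day 0 to day 5 was 3.34 ± 0.74 in R1 (10.1-fold, adjusted p = 0.00106), 5.62 ± 0.74 in 3F (49.2-fold, adjusted p = 3.96e-06) and 3.12 ± 0.74 in 4F (8.67-fold, adjusted p = 0.00385). Without replicate 3 of 4F at day 5 the last was 1.51 (adjusted p = 0.0026). From day 5 to day 11 Hoxb1 fell by 3.35, 4.32 and 2.77 (adjusted p = 0.00141, 6.44e-05 and 0.00475), the last by 1.17 without that array. Both 4F calls of Hoxb1 ended in the fit of only the compared arrays (adjusted p = 0.0913 for the rise and 0.119 for the fall) and with same-numbered replicates paired in that fit (adjusted p = 0.0636 and 0.0879). The fall also lost its call with an RNA index in the fit (adjusted p = 0.0617). This index is the 3′ minus the 5′ log2 signal of the control probes for Actb and Gapdh and is higher in more degraded RNA.

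Hoxd1, the paralog 1 gene of the Hoxd cluster, also rose at day 5. It read 4.46, 4.55 and 4.17 in R1 at day 0 and 6.72, 6.88 and 8.54 at day 5. In 3F it went from 4.43, 4.42 and 4.29 to 7.69, 8.67 and 8.68. In 4F it went from 4.35, 4.26 and 4.21 to 4.77, 5.57 and 7.2. The day 5 arrays lay above the day 0 arrays in all 3 lines, with the smallest gap in 4F. The changes were 2.99 ± 0.47 (adjusted p = 3.51e-05), 3.97 ± 0.47 (adjusted p = 1.06e-06) and 1.57 ± 0.47 (adjusted p = 0.0194). In 4F the change was 0.9 (adjusted p = 0.171) without replicate 3 of day 5. That call also ended without replicate 2 or 3 of day 0 (adjusted p = 0.054 and 0.056), with only the compared arrays (adjusted p = 0.0639) and with the replicate block on them (adjusted p = 0.0666). At day 11 Hoxd1 read 5.47, 4.86 and 3.95 in R1 and 4.36, 4.56 and 4.31 in 3F, and from day 5 it fell by 2.62 and fell by 3.93 (adjusted p = 0.000204 and 8.78e-07).

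Hoxb2, which acts in the hindbrain and in facial nerve formation, stayed above its day 0 values at day 11 in R1 and 3F. In R1 it read 6.56, 6.47 and 6.42 at day 0, 7.65, 8.0 and 9.41 at day 5 and 7.98, 8.34 and 7.44 at day 11. In 3F it read 6.9, 6.73 and 6.73, then 8.81, 9.92 and 9.96, then 7.83, 8.06 and 7.86. Both later days lay above day 0 in these lines. The day 5 rise was 1.87 ± 0.45 in R1 and 2.78 ± 0.45 in 3F (adjusted p = 0.00238 and 5.58e-05). At day 11 the change from day 0 was 1.44 ± 0.45 and 1.13 ± 0.45 (adjusted p = 0.0119 and 0.0441), and the one in 3F did not pass when any 1 of its 6 arrays was left out (adjusted p = 0.0668 to 0.096), nor the one in R1 without replicate 2 of day 11 (1.23, adjusted p = 0.0589). In 4F the 3 days overlapped: 6.57, 6.51 and 6.47, then 6.31, 6.92 and 8.76, then 6.04, 6.05 and 6.75.

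**Figure D2:**
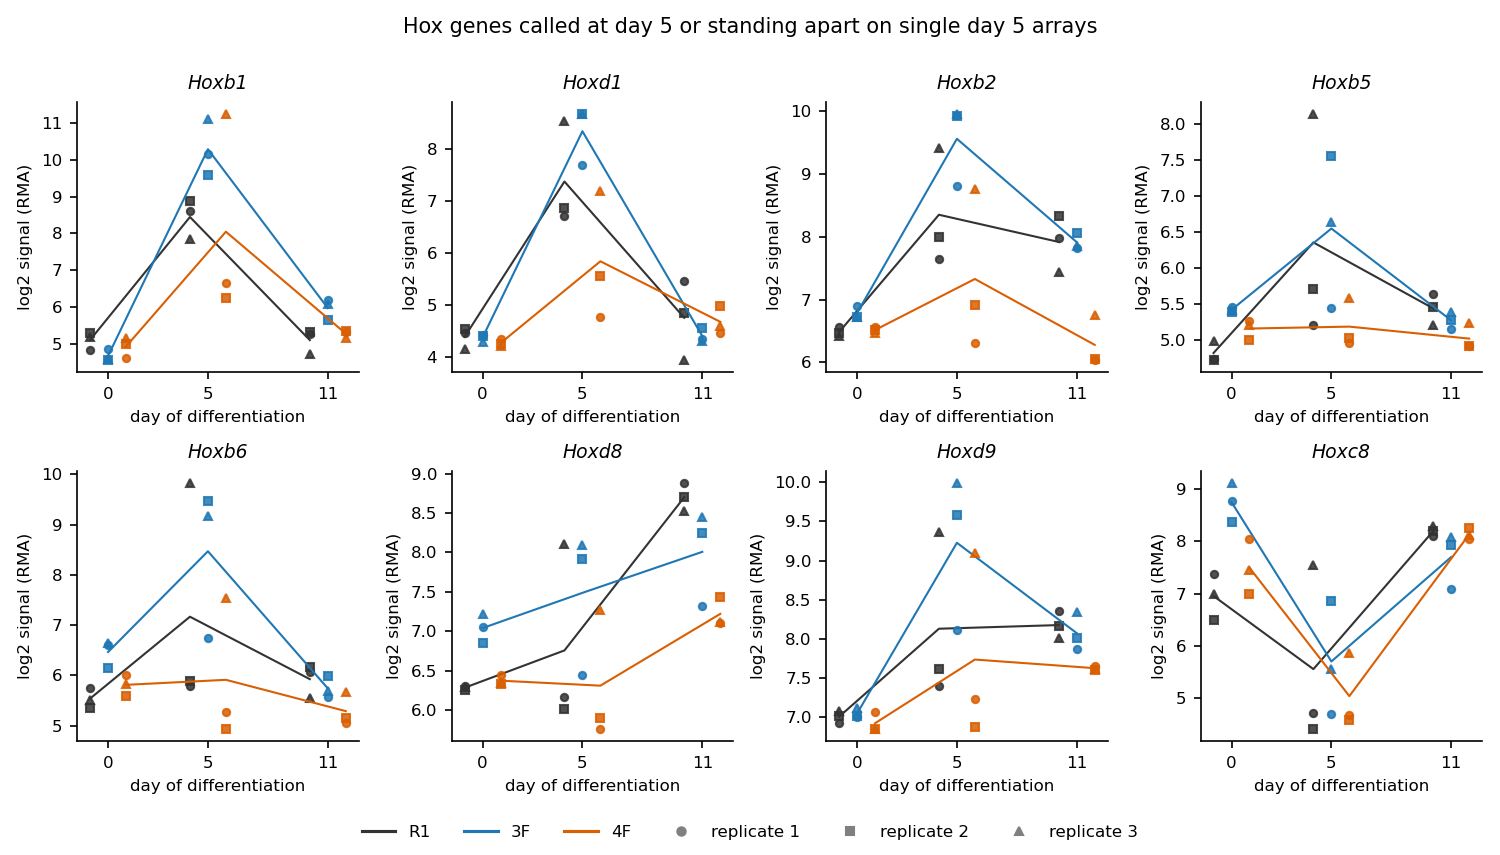
Log2 signal of 8 Hox genes on each array (points) and group means (lines) at days 0, 5 and 11 in R1, 3F and 4F. Hoxb1 and Hoxd1 peak at day 5, and for Hoxb6, Hoxd8 and Hoxd9 the day 5 arrays of a line spread widely, with replicate 3 of R1 and 4F on top and replicate 1 of 3F at the bottom.

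Single day 5 arrays stood apart at a larger share of the Hox genes than of all genes. In R1, replicate 3 was at least 1 log2 unit above both other arrays at 9 Hox genes, Hoxa9, Hoxb2, Hoxb4, Hoxb5, Hoxb6, Hoxc8, Hoxd1, Hoxd8 and Hoxd9, which is 27.3% of them against 1.34% of all genes. In 4F, replicate 3 was that far above at 8, Hoxa9, Hoxb1, Hoxb2, Hoxb6, Hoxc8, Hoxd1, Hoxd8 and Hoxd9 (24.2% against 2.09%). In 3F, replicate 1 was that far below the other arrays at 6, Hoxa9, Hoxb2, Hoxb5, Hoxb6, Hoxd8 and Hoxd9, against 0.148% of all genes. These counts describe single arrays and carry no test.

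Hoxb6, a trunk gene, shows the spread. It read 5.75, 5.35 and 5.51 in R1 at day 0 and 5.78, 5.89 and 9.83 at day 5. In 3F it read 6.6, 6.14 and 6.65 at day 0 and 6.75, 9.48 and 9.18 at day 5, and in 4F 6.01, 5.59 and 5.83 and then 5.26, 4.93 and 7.54. At day 11 all 9 arrays were back between 5.06 and 6.17. Hoxb6 passed the test in none of the lines at day 5, and Hoxb5, at 5.21, 5.71 and 8.14 in R1, rose by 1.54 ± 0.49 (adjusted p = 0.0162) with replicate 3, while its change was 0.64 (adjusted p = 0.184) without it. That call also ended with array weights, with only the compared arrays and with the replicate block on them (adjusted p = 0.0517, 0.136 and 0.0758).

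Hoxd9 read 7.4, 7.62 and 9.37 in R1, 8.11, 9.58 and 9.99 in 3F and 7.23, 6.88 and 9.1 in 4F at day 5, against 6.85 to 7.12 over the 9 arrays of day 0. It rose in 3F by 2.18 ± 0.48 (adjusted p = 0.00114). On the same arrays Cdx2, a direct activator of trunk Hox genes, read 9.69, 9.54 and 11.29 in R1, 10.26, 11.15 and 11.29 in 3F, and 7.89, 8.16 and 11.47 in 4F. Nkx1-2 and Wnt5a, of the same list of axis genes, were also highest on replicate 3 of R1 and of 4F and lowest on replicate 1 of 3F. Nkx1-2 read 8.13, 8.18 and 10.4 in R1, 9.57, 11.26 and 10.86 in 3F and 7.88, 8.06 and 10.93 in 4F. Wnt5a read 8.85, 9.02 and 10.1, then 9.88, 10.9 and 10.93, then 4.83, 5.01 and 9.04. Other values of the list went different ways in R1 and 4F. In 4F the mean log2 signal of 16 Cdx and posterior axis genes was 8.45 on replicate 3 against 6.44 and 6.53, and Hoxb1 was highest there. In R1 that mean was 7.62 against 7.81 and 7.71, Hoxb1 was lowest on replicate 3, and Cyp26a1, which degrades retinoic acid, read 10.31 there against 11.93 and 12.05. Other measures also moved with these arrays. On replicate 3 of R1 the mean of 16 fibroblast and feeder genes was 8.72 against 6.99 and 7.37, that of 20 pluripotency genes was 8.21 against 9.64 and 9.01, and the RNA index was 1.28 against 1.78 and 1.93. On replicate 3 of 4F the mean of 12 lateral plate and cardiac genes was 7.88 against 6.4 and 6.34. On replicate 1 of 3F the pluripotency mean was 9.21 against 8.58 and 8.5. The part of these measures in the Hox values was not tested.

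Hoxc8, a thoracic gene, ran the other way. It read 7.37, 6.5 and 7.0 in R1 at day 0, 8.77, 8.37 and 9.12 in 3F and 8.04, 6.99 and 7.46 in 4F. At day 5 it read 4.71, 4.41 and 7.55, then 4.7, 6.86 and 5.55, then 4.67, 4.58 and 5.87. The groups did not overlap in 3F and 4F, where it fell by 3.05 ± 0.59 (adjusted p = 0.000335) and 2.46 ± 0.59 (adjusted p = 0.00404), and they overlapped in R1 through replicate 3. At day 11 it read 8.1, 8.21 and 8.29 in R1, 7.09, 7.94 and 8.08 in 3F and 8.04, 8.25 and 8.12 in 4F. From day 5 it rose by 2.64 ± 0.59, 2.0 ± 0.59 and 3.09 ± 0.59 (adjusted p = 0.00148, 0.00933 and 0.000225). Without replicate 1 of 3F at day 5 the rise in 3F was 1.5 (adjusted p = 0.074).

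A fibroblast and feeder gene list was also low at day 5. Of its 16 measured genes, 7 fell and 1 rose at day 5 in R1, 11 fell in 3F and 14 fell in 4F, and from day 5 to day 11 the numbers that rose were 12, 11 and 12. Of all genes, 8.1%, 7.4% and 4.82% fell at day 5, and 7.1%, 6.16% and 6.66% rose from day 5 to day 11. The mean log2 signal of the list at day 0 was 8.98 to 9.95 over the R1 arrays, 10.59 to 11.36 in 3F and 9.51 to 10.59 in 4F. At day 5 it was 6.99 to 8.72, 7.47 to 8.33 and 6.48 to 6.93, and at day 11 it was 11.14 to 11.79, 11.3 to 12.05 and 9.23 to 10.57. S100a4, a gene of the list strong in fibroblasts, fell at day 5 by 6.17, 6.43 and 5.59 (adjusted p = 2.31e-10, 7.39e-11 and 1.16e-09), to 5.2 ± 0.26, 5.61 ± 0.41 and 5.12 ± 0.27. Col3a1, a collagen of loose connective tissue, fell at day 5 in each line, and from day 5 to day 11 rose by 7.99 ± 0.59 in R1, 8.62 ± 0.59 in 3F and 7.54 ± 0.59 in 4F (adjusted p = 1.56e-09, 4.89e-10 and 8.47e-09). Col1a1, the main collagen of bone and skin, rose by 4.13 ± 0.63, 3.67 ± 0.63 and 4.7 ± 0.63 (adjusted p = 3.33e-05, 6.79e-05 and 5.03e-06), and at day 5 it was called in 4F, with a change of −2.14 ± 0.63 (adjusted p = 0.0172), and in neither other line. The part of feeder RNA at day 0 or of fibroblast-like cells at day 11 in the Hox values was not tested.

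**Figure D3:**
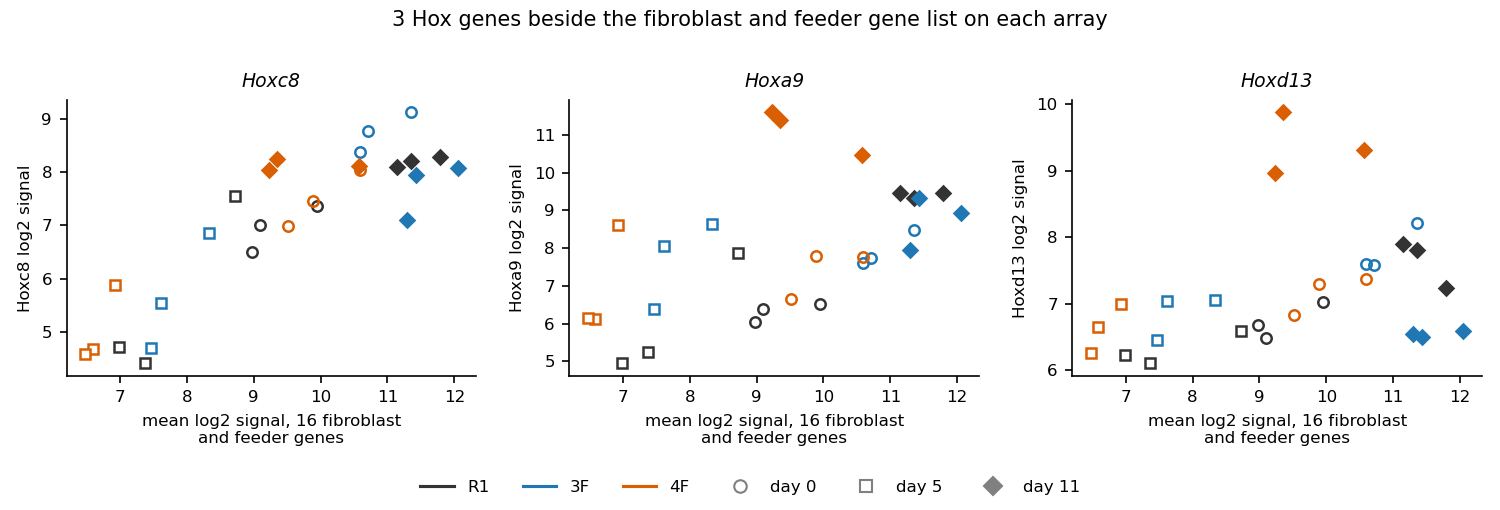
Log2 signal of Hoxc8, Hoxa9 and Hoxd13 on each of the 27 arrays against the mean log2 signal of 16 fibroblast and feeder genes on the same array, by line (colour) and day (symbol). The 9 day 5 arrays lie lowest on the list, at 6.48 to 8.72. The 4F arrays of day 11 have the highest Hoxa9 and Hoxd13 signals while their list means, 9.23 to 10.57, are below those of the other lines at day 11.

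From day 5 to day 11 most rises in R1 and 4F were of genes with high paralog numbers, while 5 of the 8 calls in 3F were falls of genes with numbers 1 to 6. In R1, 8 of 33 Hox genes rose (24.2% against 7.1% of all genes) and 2 fell (6.06% against 4.53%). In 4F, 8 rose (24.2% against 6.66%) and 1 fell (3.03% against 9.16%). In 3F, 3 rose (9.09% against 6.16%) and 5 fell (15.2% against 10.8%). Of the 14 genes with paralog numbers 9 to 13, 6 rose in R1, 2 in 3F and 6 in 4F and none fell. Over both directions 30.3%, 24.2% and 27.3% of the Hox genes were called in R1, 3F and 4F, against 11.6%, 16.9% and 15.8% of all genes. The falls were of Hoxb1 and Hoxd1 in R1, of Hoxb1 in 4F, and of Hoxb1, Hoxb2, Hoxb5, Hoxb6 and Hoxd1 in 3F. In 3F, Hoxb6 fell by 2.73 ± 0.78 (adjusted p = 0.00768) and Hoxb5 by 1.28 ± 0.49 (adjusted p = 0.0422). The Hoxb5 call ended without any 1 of 5 of its 6 arrays, and that of Hoxb6 without replicate 2 of day 5 (−2.23, adjusted p = 0.0514). The RNA index was 1.1 ± 0.08 at day 5 and 1.55 ± 0.229 at day 11 in 3F. With it in the fit Hoxb5, Hoxb6 and Hoxb2 were no longer called, at −0.57, −1.57 and −1.11 (adjusted p = 0.436, 0.152 and 0.0956).

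Against day 0, 9 rose at day 11 in R1 (27.3% against 11.4%), 9 in 4F (27.3% against 6.72%) and 5 in 3F (15.2% against 7.55%), where Hoxd13 fell (3.03% against 16%). Over both directions the shares were 27.3%, 27.3% and 18.2%, against 23.6%, 20.8% and 23.6% of all genes. The median change over the 33 was 0.38, 0.38 and 0.31, against −0.04, −0.11 and 0.01 over all genes. Hoxa10, Hoxa11 and Hoxc10 rose in all 3 lines. Hoxa9, Hoxc4 and Hoxd10 rose in R1 and 4F, Hoxb2 in R1 and 3F and Hoxa5 in 3F and 4F. Hoxd8 and Hoxd9 rose in R1, and Hoxc13 and Hoxd13 in 4F. The rises lay in the Hoxa, Hoxc and Hoxd clusters: of the 9 Hoxb genes, Hoxb2 was the one that rose.

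Hoxc10, a gene of the lumbar level and hindlimb, had clear steps. It read 4.43, 4.31 and 4.11 at day 0, 4.28, 4.19 and 4.95 at day 5 and 6.95, 6.01 and 7.1 at day 11 in R1. In 3F the day 11 values were 5.49, 6.25 and 6.94 and in 4F 6.79, 7.29 and 7.74, with all earlier arrays of these lines between 4.14 and 4.96. No day 11 array of a line overlapped with its earlier days. Relative to day 0 the change was 2.4 ± 0.3 in R1 (5.29-fold, adjusted p = 7.34e-07), 1.3 ± 0.3 in 3F (2.47-fold, adjusted p = 0.000937) and 2.73 ± 0.3 in 4F (6.65-fold, adjusted p = 1.51e-07). In 3F it was 0.94, under 2-fold, without replicate 3 of day 11.

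Hoxd10, its paralog in the Hoxd cluster and a limb gene, read 4.6, 4.29 and 4.2 in R1 at day 0 and 6.29, 5.93 and 6.35 at day 11. In 4F it went from 4.33, 4.44 and 4.55 to 7.64, 7.33 and 6.65, and in 3F from 5.03, 4.7 and 5.27 to 4.94, 5.85 and 6.43. The days did not overlap in R1 and 4F and did in 3F, through replicate 1 of day 11 alone. The changes were 1.83 ± 0.31 in R1 and 2.77 ± 0.31 in 4F (adjusted p = 3.2e-05 and 1.76e-07). In 3F the change of 0.75 did not pass.

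Hoxa9, known from posterior axis and blood progenitor cells, had the largest rise at day 11 in R1 and 4F. It read 6.53, 6.03 and 6.38 in R1 at day 0, 4.95, 5.25 and 7.87 at day 5 and 9.46, 9.32 and 9.45 at day 11. In 4F it read 7.76, 6.65 and 7.79, then 6.12, 6.14 and 8.61, then 11.6, 11.41 and 10.46. In 3F it read 7.73, 7.62 and 8.47, then 6.38, 8.65 and 8.07, then 7.94, 9.33 and 8.93. Day 11 stood above both earlier days in R1 and 4F and overlapped with them in 3F, through replicate 1 of day 11 alone. Relative to day 0 it changed by 3.1 ± 0.68 in R1 (8.57-fold, adjusted p = 0.000625) and 3.76 ± 0.68 in 4F (13.5-fold, adjusted p = 9.21e-05), and 0.79 ± 0.68 in 3F (adjusted p = 0.355).

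Hoxa10 and Hoxa11, which act in the limb and the reproductive tract, rose in each line. Hoxa10 went from 5.43, 5.42 and 5.06 to 6.99, 7.05 and 7.68 in R1 and from 5.63, 5.65 and 5.89 to 7.84, 7.45 and 7.76 in 4F. In 3F it went from 5.78, 5.43 and 6.29 to 5.89, 8.01 and 7.95, where replicate 1 stayed at the day 0 level. The changes were 1.94 ± 0.39, 1.96 ± 0.39 and, in 3F, 1.45 ± 0.39 (adjusted p = 0.000229, 0.000224 and 0.00346). The call in 3F ended when the 6 compared arrays were fitted alone (adjusted p = 0.0815), as did that from day 5 (adjusted p = 0.0589). Hoxa11 was between 6.47 and 7.35 over the 9 arrays of day 0 and between 8.26 and 9.48 over the 9 of day 11, and rose by 1.97 ± 0.26, 1.36 ± 0.26 and 1.73 ± 0.26 (adjusted p = 1.47e-06, 0.000133 and 8.75e-06).

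Hoxc4 and Hoxd8, with paralog numbers 4 and 8, joined them in some lines. Hoxc4 read 5.75, 6.16 and 5.55 in R1 at day 0 and 7.32, 7.37 and 7.6 at day 11, a change of 1.61 ± 0.26 (adjusted p = 2.14e-05), and in 4F it rose by 1.57 ± 0.26 (adjusted p = 3.17e-05). In 3F it went from 6.65, 6.14 and 6.62 to 6.44, 7.51 and 7.57 and was not called. There replicate 1 alone stayed within the day 0 range. Hoxd8 read 6.3, 6.26 and 6.29 in R1 at day 0 and 8.88, 8.7 and 8.52 at day 11, a change of 2.42 ± 0.45 (adjusted p = 0.000123). Hoxc13 read 5.85, 5.84 and 5.76 in 4F at day 0 and 6.68, 6.19 and 7.63 at day 11, a change of 1.02 ± 0.22 (adjusted p = 0.000717) that was 0.62 without replicate 3 of day 11. Hoxd9 in R1 was close to the threshold at 1.17 ± 0.48 (adjusted p = 0.049), and leaving out any 1 of the 6 arrays ended the call (adjusted p = 0.0723 to 0.121), as did median centring, cyclic loess, quantile normalization and averaged probe sets (adjusted p = 0.0502 to 0.0847).

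Hoxd13, the last gene of its cluster and a gene of digits and genitalia, took a different course in each line. It read 7.03, 6.68 and 6.48 in R1 at day 0, 6.22, 6.1 and 6.59 at day 5 and 7.89, 7.81 and 7.24 at day 11. In 3F it read 7.58, 7.6 and 8.22, then 6.45, 7.06 and 7.04, then 6.54, 6.49 and 6.58. In 4F it read 7.37, 6.82 and 7.29, then 6.64, 6.26 and 6.99, then 8.96, 9.88 and 9.31. At day 11 the 3 lines were fully apart, 3F lowest and 4F highest. From day 5 to day 11 it rose by 1.34 ± 0.25 in R1 and 2.75 ± 0.25 in 4F (adjusted p = 0.000309 and 6.68e-08). From day 0 to day 11 Hoxd13 fell by 1.27 ± 0.25 in 3F (adjusted p = 0.000222) and rose by 2.22 ± 0.25 in 4F (4.67-fold, adjusted p = 2.43e-07), and its change of 0.91 in R1 was under 2-fold.

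**Figure D4:**
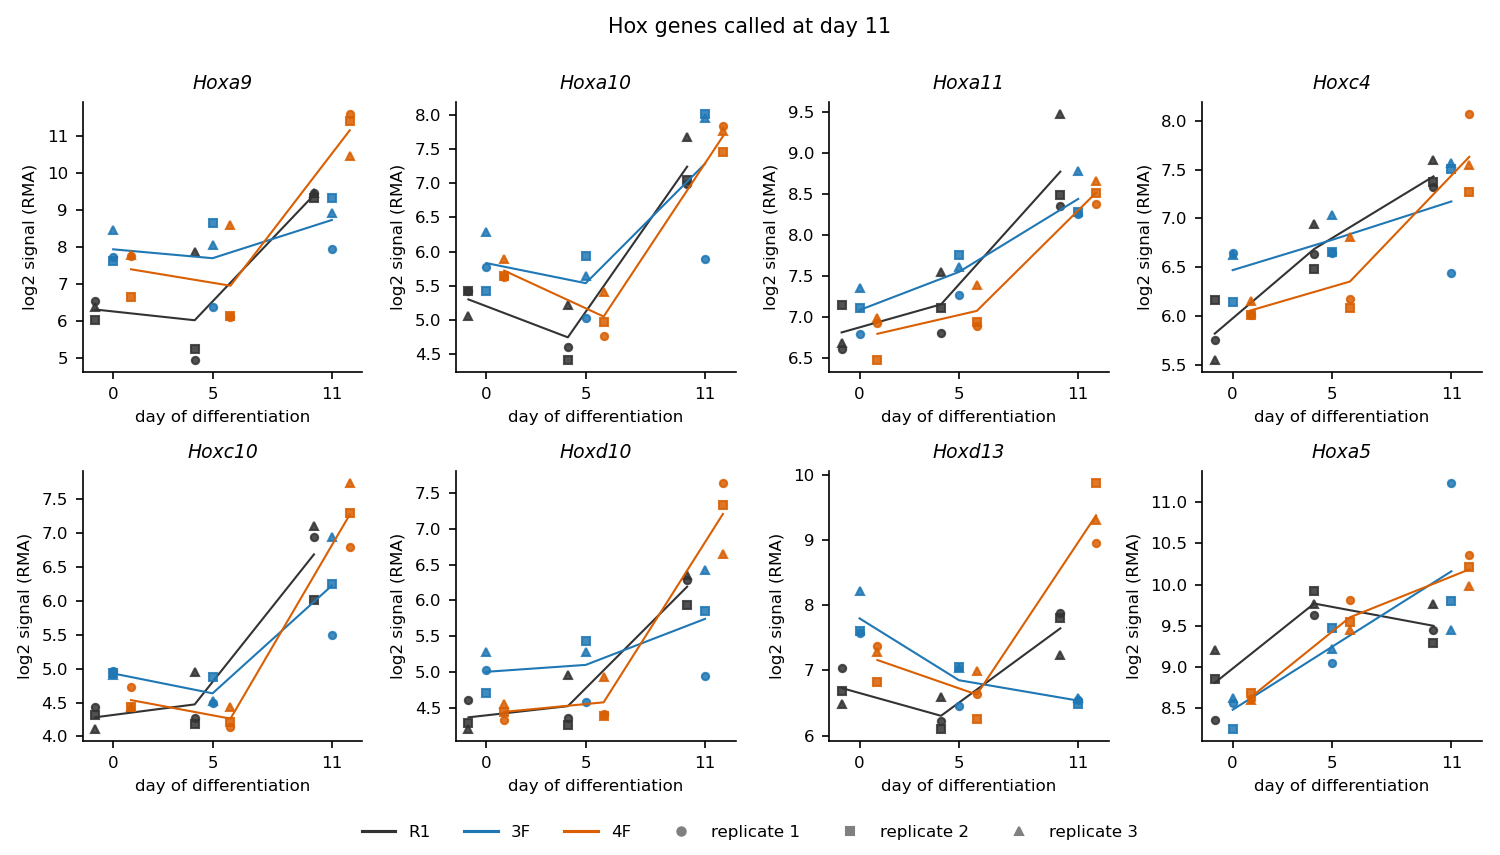
Log2 signal of 8 Hox genes on each array (points) and group means (lines) at days 0, 5 and 11 in R1, 3F and 4F. Hoxa9, Hoxa10, Hoxc10 and Hoxd10 are highest at day 11 in R1 and 4F. Hoxd13 separates the lines at day 11, with 4F at 8.96 to 9.88, R1 at 7.24 to 7.89 and 3F at 6.49 to 6.58.

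Few Hox genes differed between the lines at day 0. Between 3F and R1, Hoxd13 was higher in 3F by 1.07 ± 0.25 (adjusted p = 0.0129), 1 of 33 (3.03%) against 2.21% of all genes. This call ended without replicate 2 or 3 of R1 or replicate 3 of 3F (changes of 0.86 to 1.05) and under quantile normalization (0.99), median centring (0.96), averaged probe sets (0.48) and the RNA index (0.92, adjusted p = 0.104). Between 4F and R1 none of the 33 differed in the limma fit, against 1.12% of all genes. There 1 of the 33 had an unadjusted p under 0.05, as did 13.1% of all genes. Between 4F and 3F none differed, against 1.98%, and 2 had an unadjusted p under 0.05, as did 15.6% of all genes. With same-numbered replicates of 4F and R1 paired in a fit of only the compared arrays, 1 of the 33 was called. That fit was chosen after seeing the data, and its share of all genes was not computed.

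At day 5, 4F lay below 3F at Hoxb1, Hoxb2, Hoxb6, Hoxd1 and Hoxd9, 5 of 33 (15.2%) against 4.57% of all genes. The differences were −2.24 ± 0.74, −2.23 ± 0.45, −2.56 ± 0.78, −2.5 ± 0.47 and −1.49 ± 0.48 (adjusted p = 0.0386, 0.00129, 0.0252, 0.000699 and 0.0326). The arrays of the lines did not overlap for Hoxb2 and Hoxd1, whose calls held with each array left out, and overlapped for the other 3 through replicate 3 of 4F. The calls of those 3 ended without replicate 3 of 3F or without replicate 1 or 2 of 4F, and with only the compared arrays. The RNA index was 1.62 ± 0.084 in 4F and 1.1 ± 0.08 in 3F. With it in the fit the call of Hoxd1 remained and the other 4 ended, at −2.63 for Hoxb1, −1.61 for Hoxb2, −1.21 for Hoxb6 and −0.9 for Hoxd9 (adjusted p = 0.0747, 0.0545, 0.458 and 0.378). The pluripotency factor gene Pou5f1 read 12.34 ± 0.39 in 4F at day 5, 10.17 ± 1.38 in R1 and 10.04 ± 0.61 in 3F, and its part in these differences was not tested. Against R1, 4F was lower at Hoxd1 by 1.53 ± 0.47 (adjusted p = 0.0351; 3.03% against 3.14%), with overlap, and the difference was −0.95 (adjusted p = 0.272) without replicate 3 of R1 and also missed the threshold without replicate 1 or 2 of 4F and with only the compared arrays (adjusted p = 0.206). Between 3F and R1 none of the 33 passed in the limma fit, against 0.374% of all genes. There 5 of the 33 had an unadjusted p under 0.05, as did 8.92% of all genes. With replicate 3 of R1 and of 4F at day 5 and replicate 1 of 3F at day 11 left out, 8 Hox genes were higher in 3F than in R1 and 8 were lower in 4F than in 3F, but these arrays were picked for their own Hox values. The share of all genes called in that fit was not computed, so these counts cannot be read as particular to Hox genes.

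The change from day 0 to day 5 differed between 4F and 3F at Hoxd1, by −2.4 ± 0.67 (adjusted p = 0.0436), 1 of 33 (3.03%) against 1.51% of all genes. The call ended when any 1 of 10 of the 12 arrays was left out, the exceptions being replicate 1 of 3F and replicate 3 of 4F at day 5. It also ended with the replicate block (adjusted p = 0.0697) and with the RNA index (adjusted p = 0.0774). No Hox gene passed for the other line pairs at day 5 in the limma fit, against 0.374% of all genes for 3F and R1 and 3.64% for 4F and R1. An unadjusted p under 0.05 was found for 1 and 3 of the 33, and for 9.73% and 17.6% of all genes.

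At day 11, 4 of the 14 genes with paralog numbers 9 to 13 were higher in 4F than in 3F and 3 were higher than in R1, none was lower, and 8 of the 14 changes were positive in each comparison. Against 3F, 4F was higher at Hoxa9, Hoxc10, Hoxd10 and Hoxd13, 4 of 33 (12.1%) against 5.12% of all genes, and lower at Hoxb2 (3.03% against 4.91%). Hoxd13 differed by 2.85 ± 0.25 (7.19-fold, adjusted p = 6.02e-08), Hoxa9 by 2.42 ± 0.68 (adjusted p = 0.0101), Hoxd10 by 1.46 ± 0.31 (adjusted p = 0.00105) and Hoxc10 by 1.04 ± 0.3 (adjusted p = 0.0113). The arrays did not overlap except for Hoxc10, whose difference was 0.67 (adjusted p = 0.0949) without replicate 1 of 3F and 0.81 (adjusted p = 0.0597) without replicate 3 of 4F. Without replicate 1 of 3F the difference of Hoxa9 was 2.02 (adjusted p = 0.0547). With only the compared arrays the calls of Hoxc10 and Hoxd10 ended (adjusted p = 0.162 and 0.0798), and that of Hoxd10 also with the replicate block on them (adjusted p = 0.0844).

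Against R1, 4F was higher at Hoxd13, Hoxb13 and Hoxd10, 3 of 33 (9.09%) against 2.39% of all genes, and lower at Hoxb2 and Hoxd8 (6.06% against 5.92%). Hoxd13 differed by 1.74 ± 0.25 (adjusted p = 4.07e-05), Hoxb13, a gene of the tail end, by 1.11 ± 0.26 (adjusted p = 0.00317) and Hoxd10 by 1.01 ± 0.31 (adjusted p = 0.0176). Hoxb2 and Hoxd8 differed by −1.64 ± 0.45 and −1.48 ± 0.45 (adjusted p = 0.0103 and 0.0198). The arrays of the lines did not overlap at these 5 genes. Without replicate 2 of R1 or replicate 1 of 4F, Hoxd13 and Hoxb13 alone of the 5 remained called. Without replicate 2 of 4F, Hoxb13 was 0.98, under 2-fold, and Hoxd10 was 0.95 (adjusted p = 0.0642). Without replicate 1 of R1, Hoxd8 was −1.39 (adjusted p = 0.0648). Between 3F and R1, Hoxd13 was lower in 3F by 1.11 ± 0.25 (adjusted p = 0.0187), 1 of 33 (3.03%) against 0.786%. With same-numbered replicates paired and the compared arrays alone it did not pass (adjusted p = 0.137), nor in the fit of those arrays without pairing (adjusted p = 0.311), with array weights (adjusted p = 0.108), or without replicate 1 or 2 of R1 or replicate 1 of 3F.

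RNA quality moved with these line differences. The RNA index was 2.69 ± 0.231 (n = 3) in 4F at day 11, 1.94 ± 0.205 in R1 and 1.55 ± 0.229 in 3F, and 1.09 to 1.66 in the groups of the earlier days. With this index in the fit, 4F against 3F at Hoxd13 was 3.32 (adjusted p = 0.000709) and against R1 it stayed called, and Hoxa9 against 3F was 4.01 (adjusted p = 0.0571). Hoxb2 against 3F became −0.27 (adjusted p = 0.861) and against R1 −0.74 (adjusted p = 0.519), and Hoxd8 against R1 became −0.48 (adjusted p = 0.706). Hoxb13 against R1 was 0.98 (adjusted p = 0.116), so its call ended too. All 4F arrays of day 11 had an index above all others, so line, day and index are largely bound together there.

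The change from day 0 to day 11 differed most at Hoxd13. It was more negative in 3F than in R1 by 2.18 ± 0.36 (difference −2.18, adjusted p = 0.00172), 1 of 33 (3.03%) against 1.22% of all genes. It was more positive in 4F than in R1 by 1.31 ± 0.36 (adjusted p = 0.0165; 3.03% against 2.47%) and than in 3F by 3.49 ± 0.36 (adjusted p = 2.43e-06). Between 4F and 3F, Hoxd10 and Hoxc10 also differed, by 2.03 ± 0.43 (adjusted p = 0.00477) and 1.43 ± 0.42 (adjusted p = 0.0343), so that 3 of 33 (9.09%) differed against 3.41% of all genes. The difference for 4F and R1 was 1.06 (adjusted p = 0.0554) without replicate 2 of 4F at day 11, and that for Hoxc10 was 1.06 (adjusted p = 0.0873) without replicate 1 of 3F at day 11. The Hoxc10 call also ended without any 1 of the day 0 arrays of 3F (adjusted p = 0.0627 to 0.068). It ended too without replicate 2 or 3 of 4F at day 0 or at day 11 (adjusted p = 0.0692 to 0.0757). The Hoxd13 difference for 4F and R1 was 1.68 (adjusted p = 0.0798) with the RNA index in the fit, and with the probe sets averaged it and that for 3F and R1 were 0.66 and −0.93, both under 2-fold. The Hoxc10 call ended with only the compared arrays (adjusted p = 0.0883).

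Probe sets of a gene did not always move together, and several of these results rest on 1 of 2. The brighter Hoxd13 probe set ran from 6.1 to 9.88, while the other ran from 5.42 to 6.05 over the 27 arrays and changed by −0.12 ± 0.13 (adjusted p = 0.506 in a fit of all probe sets) in 4F from day 0 to day 11. Averaged over both, Hoxd13 still differed between 4F and 3F at day 11, by 1.27 (adjusted p = 1.31e-06), and its calls in R1 from day 5 to day 11, in 3F from day 0 to day 11, in 3F against R1 and in 4F against R1 ended. The second Hoxa9 probe set ran from 6.41 to 7.79 and changed by 0.46 ± 0.17 in R1 and 0.44 ± 0.17 in 4F from day 0 to day 11, and the second Hoxa10 probe set ran from 4.16 to 5.28. Averaged over its probe sets, Hoxa10 changed in 3F by 0.97 from day 5 and 0.94 from day 0 to day 11, both under 2-fold, and these calls ended. Averaged Hoxa9 rose by 1.78 in R1 and 2.1 in 4F (adjusted p = 0.000197 and 3.38e-05).

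Hoxa5, a gene of the neck and lung level, rose at day 11 in 3F and 4F on its brighter probe set, by 1.68 ± 0.29 and 1.55 ± 0.29 (adjusted p = 4.64e-05 and 0.000133). The 4F call ended with the RNA index in the fit (0.82, adjusted p = 0.383), and the 3F call ended with the probe sets averaged (0.65, under 2-fold). Its second probe set rose in 4F by 1.3 ± 0.34 (adjusted p = 0.00357 in the fit of all probe sets) and read −0.37 ± 0.34 (adjusted p = 0.407) in 3F. The 3F arrays of day 11 were 11.23, 9.8 and 9.45, with replicate 1 apart. Both Hoxd8 probe sets rose in R1, the second by 1.68 ± 0.42 (adjusted p = 0.00255). Genes with 1 probe set here, such as Hoxb1, Hoxb2, Hoxc8, Hoxc10, Hoxd1 and Hoxd10, allow no such check.

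On the probe set used for each gene, the other 16 Hox genes passed in none of the 9 comparisons between days. They were Hoxa2, Hoxa3, Hoxa4, Hoxa7, Hoxa13, Hoxb3, Hoxb4, Hoxb7, Hoxb9, Hoxb13, Hoxc5, Hoxc6, Hoxc9, Hoxd3, Hoxd11 and Hoxd12. Hoxb4, a gene of blood stem cell growth, came near, at 6.81 ± 0.03, 7.27 ± 0.75 and 7.54 ± 0.28 on days 0, 5 and 11 in R1 and 6.86 ± 0.14, 7.35 ± 0.64 and 7.68 ± 0.08 in 3F. Hoxd11 and Hoxd12, which lie between Hoxd10 and Hoxd13, had group means of 5.09 to 5.51 and 4.3 to 4.84. Replicate 1 of 3F at day 11 was at least 1 log2 unit above both other arrays at Hoxa3, Hoxa5, Hoxa7, Hoxa13, Hoxb13 and Hoxd12 (18.2% of the 33 against 3.71% of all genes). It was that far below both at 2 of the 33, Hoxa10 and Hoxc4, and at 3.51% of all genes. A dimmer Hoxc5 probe set read 6.62, 6.04 and 6.72 in 3F at day 0 and 5.11, 5.41 and 5.63 at day 5. In 4F it read 4.98, 4.53 and 5.83 at day 5 and 6.79, 6.17 and 6.26 at day 11. A dimmer Hoxc6 probe set read 6.36, 6.57 and 6.17 in 3F at day 5 and 8.67, 7.35 and 7.68 at day 11. That of Hoxb3 ran from 5.38 to 7.76. Those of Hoxa3, Hoxa4 and Hoxb4 and another of Hoxc5 had no such steps. Whether these dimmer probe sets passed is not reported here.

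Between days, separation of the arrays with no minimum size was about as common among Hox genes as among all genes. From day 0 to day 5 the arrays of the days did not overlap at 39.4% of the 33 in R1, 48.5% in 3F and 36.4% in 4F, against 45%, 56.7% and 46.6% of all genes. From day 5 to day 11 the shares were 48.5%, 33.3% and 45.5% against 43.2%, 41.3% and 53.4%, and from day 0 to day 11 they were 60.6%, 45.5% and 60.6% against 52.7%, 49.9% and 54.9%. Between lines at day 0 the arrays did not overlap at 39.4% (3F and R1), 30.3% (4F and R1) and 33.3% (4F and 3F), against 29.9%, 17.1% and 31.9%. At day 5, where single arrays stood apart, the shares were lower than those of all genes, at 15.2%, 9.09% and 15.2% against 25.1%, 35% and 45.4%, and at day 11 they were 21.2%, 33.3% and 33.3% against 11.5%, 38.9% and 29.6%. The called shares of all genes over both directions were 3.09% for 3F and R1 at day 0, 5.45% and 7.48% at day 5 for 4F against R1 and 3F, and 1.02%, 8.31% and 10% at day 11 for 3F and R1, 4F and R1 and 4F and 3F, where 3.03%, 3.03%, 15.2%, 3.03%, 15.2% and 15.2% of the Hox genes were called.

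Genes that act on Hox clusters were taken from lists. The shares of all genes in R1, 3F and 4F are given first. At day 5, 6.62%, 5.04% and 2.25% rose and 8.1%, 7.4% and 4.82% fell. From day 5 to day 11, 7.1%, 6.16% and 6.66% rose and 4.53%, 10.8% and 9.16% fell. At day 11, 11.4%, 7.55% and 6.72% were higher than at day 0 and 12.2%, 16% and 14.1% lower. A count near these shares is not particular to its list. Of 16 Cdx and posterior axis genes, 7 rose at day 5 in each line, and 8, 8 and 6 fell from day 5 to day 11 in R1, 3F and 4F. Cdx2 rose by 2.73 ± 0.6, 3.81 ± 0.6 and 2.23 ± 0.6 (adjusted p = 0.00101, 3.68e-05 and 0.00983) and fell again by 2.38, 3.55 and 1.82 (adjusted p = 0.0043, 5.6e-05 and 0.0196). Cdx1 and Cdx4 passed in none of these comparisons. The median change of the list at day 5 was 0.94, 1.28 and 1.15, against −0.02, 0.0 and 0.02 over all genes.

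Of 17 retinoic acid pathway genes, 1, 2 and 3 rose at day 5 and 6, 3 and 5 were higher at day 11 than at day 0 while 0, 2 and 3 were lower, with medians of 0.04, 0.02 and 0.05. The Rarb receptor gene, itself a target of retinoic acid, rose by 4.31 ± 0.31 in R1, 4.16 ± 0.31 in 3F and 3.32 ± 0.31 in 4F (adjusted p = 4.65e-10, 4.91e-10 and 1.81e-08). Cyp26a1 rose at day 5 by 3.16 ± 0.58, 3.19 ± 0.58 and 1.77 ± 0.58 (adjusted p = 0.000169, 0.000186 and 0.0317), and at day 5 was lower in 4F than in 3F by 3.42 ± 0.58 (adjusted p = 0.000242). Aldh1a2, which makes retinoic acid in the trunk, was higher at day 11 than at day 0 in R1, by 1.58 ± 0.31 (adjusted p = 0.000205).

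Of 8 cofactor genes of the Pbx, Meis and Pknox families, 4, 4 and 2 rose at day 5 and 5, 5 and 4 were higher at day 11 than at day 0, and none fell in these comparisons. Meis1 read 5.97 ± 0.25, 6.75 ± 0.4 and 9.98 ± 0.09 on days 0, 5 and 11 in R1, and rose from day 0 by 4.01 ± 0.21, 2.67 ± 0.21 and 3.17 ± 0.21 (adjusted p = 1.09e-11, 1.21e-09 and 3.4e-10). Meis2 rose from day 0 by 4.0 ± 0.43, 3.66 ± 0.43 and 4.05 ± 0.43 (adjusted p = 8.79e-08, 2.37e-07 and 9.16e-08). The median change of these 8 genes at day 11 was 1.57, 1.35 and 0.88.

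Of 20 Polycomb genes, 8 were lower at day 11 than at day 0 in each line, and 4, 3 and 3 were higher. Eed, a core subunit of the complex that methylates histone H3 at lysine 27, fell by 2.43 ± 0.2 in R1, 2.88 ± 0.2 in 3F and 1.64 ± 0.2 in 4F (adjusted p = 2.77e-09, 2.31e-10 and 6.92e-07). Of 11 genes of trithorax complexes and H3K27 demethylases, 1, 1 and 2 were higher and 4, 5 and 4 lower. Kdm6b, which removes that mark, rose at day 5 by 2.35 ± 0.22 in R1 and 1.94 ± 0.22 in 3F (adjusted p = 4.82e-08 and 5.64e-07). It is 1 member of a list with more lower than higher genes at day 11, and the day 5 counts of the list are not reported here. The Polycomb medians at day 11 were 0.01, −0.16 and −0.31.

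Of 16 paraxial and limb mesoderm genes, 3, 2 and 3 were higher at day 11 than at day 0 and 1, 4 and 2 lower, with medians of 0.26, 0.02 and 0.06. Of all genes, 11.4%, 7.55% and 6.72% were higher and 12.2%, 16% and 14.1% lower. Tbx4, a gene of the hindlimb and lung, rose by 3.89 ± 0.75, 3.89 ± 0.75 and 4.78 ± 0.75 (adjusted p = 0.000161, 0.000156 and 1.64e-05). It read 9.41 ± 0.47 in R1, 9.88 ± 0.79 in 3F and 10.1 ± 0.24 in 4F at day 11.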

How the data were processed

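RNA from 27 samples was hybridised to Affymetrix mouse arrays, and per the submitters' processing notes the deposited log2 values were made with RMA, whose version is not given in the sources used here. They lay between 3.0 and 15.67, the medians of the arrays between 5.91 and 6.1, and no further normalization was applied. No pair of arrays was identical. Arrays carry no read depth, so 3 arrays per group limit the precision. Probe sets were named from the array annotation: of 45101, 34945 had 1 symbol, 932 had several and 64 were controls. Each gene took its brightest single-symbol probe set, giving 18193 genes. Symbols of 34741 probe sets matched the gene reference by identifier and none was changed.

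All arrays entered 1 limma 3.58.1 model of 9 group means (R 4.3.3), with Benjamini-Hochberg adjustment over all genes in each of 18 comparisons of groups and 6 differences of changes, after tests on simulated data. Tables and figures used Python 3.11.15, pandas 2.3.3, numpy 2.4.6 and matplotlib 3.10.9.

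The Hox genes, the other gene lists and the tests were chosen with earlier results of these data known. Array values were given for the Hox genes called between days, and up to 6 rises and 6 falls per comparison with their statistics. Of each list up to 4 called members with the largest changes were named, besides Cdx1, Cdx2, Cdx4, Aldh1a2, Cyp26a1, Rarb, Meis1, Meis2, Col1a1, Col3a1, Pou5f1 and Nanog; 1 further gene of this rule is not reported here. Lists were described by counts and medians, with no set test.

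The p-values weigh each change against the spread of arrays within groups, pooled over the 9 groups. This spread was not the same in all groups: the SD of Hoxb6 was 0.2 in R1 at day 0 and 2.31 at day 5. The labels name biological replicates but do not say whether these were separate cultures, so the p-values speak for these samples only. Replicate numbers were checked as pairs by the correlation of residuals. All 3 correlations were at or above 0.1 in 4F from day 5 to day 11 (0.13, 0.1 and 0.15), 4F against R1 at day 0 (0.48, 0.25 and 0.33) and 3F against R1 at day 11 (0.12, 0.49 and 0.39). The labels state no pairing, so a replicate block was an alternative. The other alternatives were median centring, cyclic loess, quantile normalization, leaving out dim genes, averaged probe sets, only the compared arrays, array weights, the RNA index as a covariate, and each array left out. A block with only the compared arrays, 3 arrays left out together and a fit of all probe sets were chosen after seeing the data.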

Additional observations from a re-analysis of the deposited data

Results flagged for a closer look

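The change from day 0 to day 5 in Hoxd1 differed between 4F and 3F by −2.4 in the test of the difference itself. The change from day 0 to day 11 in Hoxd13 differed by −2.18 between 3F and R1, by 1.31 between 4F and R1 and by 3.49 between 4F and 3F. Between 4F and 3F it also differed by 2.03 in Hoxd10 and 1.43 in Hoxc10. The calls of Hoxd1, of Hoxc10 and of Hoxd13 for 4F and R1 did not hold with each array left out, as given above. For Hoxb13 every day 11 array of 4F was above every day 5 array, and in R1 every day 11 array was below. In R1 the gap was narrow, from 5.63 at most at day 11 to 5.66 at least at day 5. The mean changes from day 5 to day 11 were 0.59 in 4F and −0.18 in R1, neither called, and this difference was not tested. All Hoxd13 values come from 1 of its 2 probe sets, as given above.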

How the results depend on the processing

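Over 87 calls of a Hox gene in a comparison, 48 held under every alternative run for them and none reversed. Calls ended for 17 with the RNA index in the fit, 15 with only the compared arrays, 11 with the mean of the probe sets, 6 with array weights, 3 with quantile normalization, 2 with cyclic loess, 2 with median centring and 1 with the replicate block, and for none when dim genes were left out. The block with only the compared arrays ended 7 of 81, and the 3 arrays left out together 4 of 57. Where the numbers of called Hox genes moved by more than 1.5 times, the cause was not tested, and they were as follows. With the RNA index, 3F against R1 at day 0 gave 0 and 4F against 3F at day 5 gave 1. The difference of the change to day 5 between 4F and 3F gave 0, and those to day 11 gave 3 (3F and R1), 0 (4F and R1) and 6 (4F and 3F). Array weights gave 3 and 1 at day 0 for 3F against R1 and 4F against 3F, and at day 5 7, 3 and 8 for 3F against R1, 4F against R1 and 4F against 3F. They gave 0 for 3F against R1 at day 11, and 2, 5 and 5 for the differences of changes of 3F and R1 to day 5, 4F and 3F to day 5 and 4F and R1 to day 11. Median centring and quantile normalization each gave 0 for 3F against R1 at day 0. Cyclic loess gave 2 and 5 for the changes to day 11 of 4F and R1 and of 4F and 3F, and quantile normalization gave 5 for the latter. With median centring the median change of all genes was −0.24 in R1 from day 0 to day 11, against −0.04 in the main fit.

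The mean of the probe sets gave 3 for 3F from day 0 to day 11, and 0 for 3F against R1 at day 0 and at day 11 and for the changes to day 11 of 3F and R1 and of 4F and R1. Only the compared arrays gave 1 for 4F from day 0 to day 5, 3 and 1 at day 0 for 3F against R1 and 4F against 3F, 0 and 2 at day 5 for 4F against R1 and 4F against 3F, and 0 and 3 at day 11 for 3F against R1 and 4F against 3F. They gave 1 for the change to day 5 of 3F and R1, and 2, 3 and 5 for those to day 11 of 3F and R1, 4F and R1 and 4F and 3F. The replicate block gave 3 for 3F against R1 at day 0, 2 and 2 at day 5 for 3F against R1 and 4F against R1, and 0 for the change to day 5 of 4F and 3F. With the compared arrays alone the block gave 1 for 4F from day 0 to day 5, 3, 1 and 1 at day 0 for 3F against R1, 4F against R1 and 4F against 3F, 2 for 4F against R1 at day 5 and 0 for 3F against R1 at day 11. The 3 arrays left out together gave 12 for 3F from day 0 to day 11, 8, 3 and 8 at day 5 for 3F against R1, 4F against R1 and 4F against 3F, 1, 1 and 5 for the changes to day 5 of 3F and R1, 4F and R1 and 4F and 3F, and 5 for the change to day 11 of 4F and 3F.

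With each array left out in turn, the numbers ran from 4 to 7 in R1 from day 0 to day 5, with 7 without replicate 1 of day 5. They ran from 0 to 2 for 3F against R1 at day 0 and at day 11, from 0 to 1 at day 5 for 3F against R1, from 0 to 3 for 4F against R1 and from 2 to 7 for 4F against 3F. For 4F against R1 at day 11 they ran from 2 to 6. The differences of changes ran from 0 to 3 for 4F and R1 to day 5, from 0 to 4 for 4F and 3F to day 5, from 1 to 5 for 3F and R1 to day 11, from 0 to 3 for 4F and R1 and from 2 to 5 for 4F and 3F. Single arrays moved these numbers as follows. At day 0, 3F against R1 gave 2 without replicate 1 of R1 and 0 without replicate 2 or 3 of R1 or replicate 3 of 3F. At day 5, 3F against R1 gave 1 without replicate 3 of R1, and 4F against R1 gave 2 without replicate 1 of R1, 0 without replicate 3 of R1 or replicate 1 or 2 of 4F and 3 without replicate 3 of 4F. There 4F against 3F gave 3 without replicate 2 of 3F and 2 without replicate 3 of 3F or replicate 1 or 2 of 4F. At day 11, 3F against R1 gave 0 without replicate 1 or 2 of R1 or replicate 1 of 3F and 2 without replicate 3 of 3F, and 4F against R1 gave 2 without replicate 2 of R1 or replicate 1 of 4F. For the changes to day 5, 4F and R1 gave 3 without replicate 3 of 4F at day 5. There 4F and 3F gave 4 without that array, 2 without replicate 1 of 3F at day 5 and 0 without any of the other 10. For those to day 11, 3F and R1 gave 5 without replicate 3 of 3F, 4F and R1 gave 0 and 3 without replicates 2 and 3 of 4F, and 4F and 3F gave 5 without replicate 2 or 3 of 3F, all of day 11.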

Other observations

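Transcripts read from the opposite strand or between Hox genes were measured for 3 loci. Hoxa11os, antisense to Hoxa11, read 4.96 ± 0.04 in R1 at day 0 and 6.27 ± 0.41 at day 11 (SD, n = 3), and from day 5 to day 11 it rose by 1.28 ± 0.2 in R1, 1.04 ± 0.2 in 3F and 1.75 ± 0.2 in 4F (limma, adjusted p = 3.4e-05, 0.000186 and 6.56e-07). Hoxd3os1, beside Hoxd3, rose by 1.62 ± 0.42, 1.68 ± 0.42 and 1.69 ± 0.42 (adjusted p = 0.00549, 0.0029 and 0.00286), while Hoxd3 itself passed in none of the comparisons between days. Hoxb5os fell in 3F at day 5, by 1.25 ± 0.39 (adjusted p = 0.0166), and Hoxb5 was not called there. Whether the probes tell a gene from its antisense partner was not tested.

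Of 12 lateral plate and cardiac genes, 8 rose at day 5 in R1, 8 in 3F and 1 in 4F, and 8 were higher at day 11 than at day 0 in each line. Of 7 anterior neural genes, 1, 0 and 0 were higher at day 11 than at day 0 and 2 were lower in each line. Of 14 neural genes, 1, 0 and 2 were higher and 3, 4 and 4 lower. Of all genes, 11.4%, 7.55% and 6.72% were higher and 12.2%, 16% and 14.1% lower, and the shares for day 5 are given with the lists above. Of 4 hindbrain segmentation genes, 3 fell at day 5 in each line, and of 6 ParaHox genes 1 rose at day 5 in each. Of 20 pluripotency genes, 17, 17 and 14 fell at day 5. Nanog, one of them, fell at day 5 in each line, with changes of −3.98 ± 0.48 in R1, −3.31 ± 0.48 in 3F and −2.09 ± 0.48 in 4F (limma, adjusted p = 1.45e-06, 1.37e-05 and 0.00295).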
